A study of Arabidopsis thaliana with 6 samples.

Results

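A group of the genes that had more RNA in mrg1 mrg2 seedlings than in wild type encode NAC transcription factors, and they are described here gene by gene and library by library. They are RD26, NAC029, NAC92, NAC59, NAC002, anac046, NAC056, anac036, NAC003 and NAC004, 10 of the 531 genes that the authors listed as higher and of 552 listed in all. The members were chosen by name among genes that the authors had listed on their own p-values and fold changes between the genotypes, so the genotype difference of each member is given below as a description and is not tested. All 10 matched, by locus, genes annotated with the NAC (NAM) domain in the TAIR10.1 annotation, which holds 114 such genes in the nuclear genome. No other NAC gene was listed as higher in the tables used here, and 0 were listed as lower. The 10 listed genes are 8.77% of the annotated family, compared with 1.84% of all 27444 annotated nuclear protein-coding genes. On another base, the authors' list of higher genes covers 2.31% of the 22995 genes that their adjustment is inferred to have covered.

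The mutant plants were Arabidopsis thaliana mrg1 mrg2 double mutants in the Columbia-0 ecotype, and were compared with wild-type Columbia-0 (Col-0). Both genotypes were grown on soil at 22 °C under days of 16 h light and 8 h dark, and leaves and stem of 12-day-old seedlings were collected 8 h after lights on. RNA of 3 mrg1 mrg2 and 3 Col-0 libraries was sequenced, with replicates 1 to 3 of each genotype from 3 independent experiments. The labels state neither the mutant alleles nor whether plants were pooled. MRG1 and MRG2 are related chromatin proteins that read methylated lysine 36 of histone H3.

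NAC proteins bind DNA through a conserved N-terminal domain and regulate transcription through a variable C-terminal region. The family is specific to plants. Several members drive the ageing of leaves, in which chlorophyll is broken down and nutrients are exported, and several respond to drought, salt and abscisic acid (ABA). In young green leaves the senescence regulators are normally kept low, by transcriptional control and, for ORE1, by the microRNA miR164.

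Values are normalized counts, which are raw reads per gene divided by a size factor for each library (0.954 to 1.07). The total depth of each library is unknown, since the tables hold listed genes only. Summed over these genes, counts were 372415 to 432369 in mrg1 mrg2 and 194996 to 253738 in Col-0, sums that depend on the choice of genes. MRG2, the mutated gene that could be checked, gave 197, 103 and 98.4 normalized counts in mrg1 mrg2 replicates 1 to 3, against 429.8, 392 and 397 in Col-0 replicates 1 to 3, without overlap. MRG2 was thus higher in mrg1 mrg2 replicate 1 than in the other mutant libraries. MRG1 and markers of the tissue were not analysed here. Col-0 replicate 1 stood apart from the other Col-0 libraries: over the listed genes the chi-square per degree of freedom was 34.4 and 36.1 against Col-0 replicates 2 and 3, compared with 12.7 between those 2 libraries. In the mutant, mrg1 mrg2 replicate 3 differed from replicates 1 and 2 by 24.4 and 27.5, compared with 14.5 between those. The median difference of the 10 NAC genes without either library is given below, and single genes are also given without Col-0 replicate 1 where their value moved most. In whole aerial tissue, more RNA per cell and a larger share of cells with a given RNA cannot be told apart.

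For all 10 NAC genes the lowest mrg1 mrg2 library was above the highest Col-0 library, as it was for 99.8% of the 531 higher genes, which were listed for this difference. The median log2 difference over the 10 genes was 0.97, or 1.96-fold, compared with 1.08 (2.12-fold) over all 531 higher genes. Single genes ranged from 0.73 for anac036 to 2.76 for NAC029, and 5 of the 10 differed by at least 1 on the log2 scale, against 58.0% of the 531. The smallest difference that the authors listed among higher genes was 1.51-fold and the largest adjusted p was 0.0497. Closest to that limit were NAC029 and NAC004, with adjusted p of 0.0470 and 0.0443 in the authors' deposited table. Genes just outside the limit were not analysed here.

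**Figure D1:**
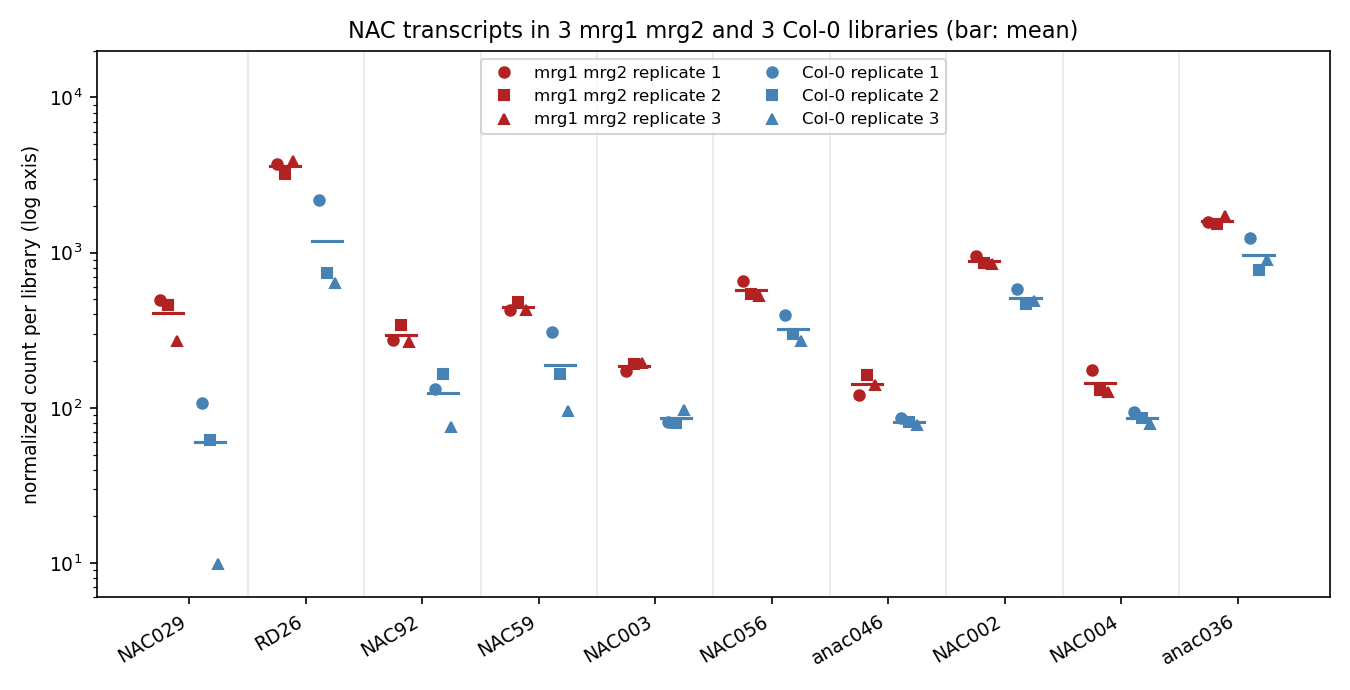
Normalized counts (log axis) of the 10 NAC genes in each mrg1 mrg2 library (red, left) and Col-0 library (blue, right), with symbols for replicate number and bars for the means of 3 libraries; genes are ordered by their log2 difference. For each gene the 3 mrg1 mrg2 points lie above the 3 Col-0 points, and the Col-0 points of NAC029, RD26, NAC59 and NAC92 spread most.

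The 2 largest differences were those of NAC029 and RD26. NAC029 (AT1G69490, known as NAP; chromosome 1, 26122080 to 26123514, plus strand, 3 exons) is an activator of leaf senescence that is known to switch on the phosphatase gene SAG113 and the ABA synthesis gene AAO3. Raw reads of NAC029 were 471, 495 and 262 in mrg1 mrg2 replicates 1 to 3, against 110, 60 and 10 in Col-0 replicates 1 to 3. After normalization NAC029 averaged 408 ± 122 counts in mrg1 mrg2 and 60.0 ± 49.2 in Col-0 (SD, n = 3 each), 6.80-fold higher in the mutant. The Col-0 libraries were far apart, with replicate 1 highest and replicate 3 lowest, a 10.5-fold range compared with 1.84-fold in mrg1 mrg2. NAC029 was 4.55-fold higher in replicate 1, 7.39-fold in replicate 2 and 26.0-fold in replicate 3, the last resting on 10 reads in Col-0. Its log2 difference was 3.51 without Col-0 replicate 1 and 2.26 without Col-0 replicate 3, against 2.76 with all libraries.

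RD26 (AT4G27410, also NAC072; chromosome 4, 13707192 to 13709170, minus strand, 3 annotated transcripts) is induced by desiccation, salt and ABA, activates stress genes and promotes chlorophyll loss. Its normalized counts were 3708, 3221 and 3897 in mrg1 mrg2 replicates 1 to 3, against 2171, 736 and 638 in Col-0 replicates 1 to 3. The mutant libraries were thus similar to each other, while Col-0 replicate 1 was 1.56 above the next Col-0 library on the log2 scale and still below every mutant library. RD26 was 3.05-fold higher in mrg1 mrg2 over all libraries, and by replicate number 1.71-fold, 4.37-fold and 6.11-fold for replicates 1 to 3. Without Col-0 replicate 1 the log2 difference was 2.39, against 1.61 with all libraries. The log2 fold changes in the authors' deposited table were 2.76 for NAC029 and 1.61 for RD26, with adjusted p of 0.0470 and 0.00565.

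The 250 bases before the annotated starts of NAC029 (TAIR10.1, chr1:26121830-26122079, plus strand) and RD26 (chr4:13709171-13709420, minus strand) are shown because both hold the pentamer ACGTG, the core of the ABA response element bound by ABF-type bZIP factors; capitals mark each ACGTG on either strand. In NAC029 a pair of overlapping copies forms the G-box CACGTG, which starts 242 bases before the gene.
NAC029: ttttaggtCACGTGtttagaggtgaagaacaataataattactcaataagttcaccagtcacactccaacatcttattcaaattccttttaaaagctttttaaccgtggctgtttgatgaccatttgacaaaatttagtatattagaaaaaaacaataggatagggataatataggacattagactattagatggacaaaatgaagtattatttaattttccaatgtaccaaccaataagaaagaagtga
RD26: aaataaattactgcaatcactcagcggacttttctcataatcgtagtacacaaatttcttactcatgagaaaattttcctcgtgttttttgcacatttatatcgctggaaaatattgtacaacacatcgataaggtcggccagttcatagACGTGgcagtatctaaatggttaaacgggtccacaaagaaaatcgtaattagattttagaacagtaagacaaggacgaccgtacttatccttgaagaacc
In RD26 the copy starts 100 bases before the gene, and the same window holds CCGAC, the core of the dehydration-responsive element, on the other strand.

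NAC92 and NAC59 are the sister senescence regulators ORE1 and ORS1, and their mean difference over all libraries was close to equal. NAC92 (AT5G39610, chromosome 5, 15858398 to 15859911, minus strand) promotes age-dependent cell death in leaves downstream of the ethylene regulator EIN2. Normalized counts of NAC92 were 272, 339.8 and 267 in mrg1 mrg2 replicates 1 to 3, against 133, 165 and 75.8 in Col-0 replicates 1 to 3, a 2.35-fold difference. NAC59 (AT3G29035, chromosome 3, 11033665 to 11035308, plus strand) accelerates leaf senescence when overexpressed. For NAC59 the counts were 427, 483 and 426 in mrg1 mrg2, against 309, 166 and 95.5 in Col-0, a 2.34-fold difference. The mutant libraries of NAC59 lay within 1.14-fold of each other and the Col-0 libraries spread 3.22-fold, with replicate 1 highest; for NAC92 these ranges were 1.27-fold and 2.17-fold, with Col-0 replicate 2 highest. NAC59 was 1.38-fold higher in replicate 1 and 4.44-fold in replicate 3, and NAC92 was 2.05-fold and 3.50-fold higher in those replicates. Without Col-0 replicate 1 the means were further apart, with a log2 difference of 1.77 for NAC59, against 1.23 with all libraries, and of 1.28 for NAC92, against 1.23. In the authors' deposited table the adjusted p was 0.00223 for NAC92 and 0.0349 for NAC59.

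ORE1 messenger RNA is a known target of miR164, and the sites of the sister genes are shown to compare them. The coding sequences of NAC92 and NAC59 were 67.8% identical, and each was the closest relative of the other in the family. The mature miR164a (chr2:19520770-19520790, plus strand, TAIR10.1) is printed with its seed, bases 2 to 8, in capitals. The best-matching stretches are given as coding-strand DNA, 5′ to 3′, with capitals for bases that do not pair with it by Watson-Crick rules.
miR164a: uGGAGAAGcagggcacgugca
NAC92: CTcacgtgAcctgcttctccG
NAC59: CTcacgtTAcctActtctccG
The NAC92 stretch (chr5:15858797-15858817, minus strand, coding bases 632 to 652) had 4 mismatches and the NAC59 stretch (coding bases 644 to 664) had 6. With a limit of 4 mismatches, 7 of the 114 NAC genes held a site: NAC1, AT3G12977, CUC1, NAC080, CUC2, NAC100 and NAC92. Of these 7, NAC92 was listed as higher and the other genes were not listed. A match describes the sequence only, and levels of miR164 were not analysed here.

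NAC002 and anac046 are further regulators with a role in senescence. NAC002 (AT1G01720, known as ATAF1; chromosome 1, 267993 to 269819, plus strand) responds to ABA and drought and is known to activate ORE1 and to repress the chloroplast regulator GLK1. It gave 952, 855 and 848 normalized counts in mrg1 mrg2 replicates 1 to 3, against 583, 469 and 488 in Col-0 replicates 1 to 3, 1.72-fold higher. Within replicates the NAC002 difference was 1.63-fold to 1.82-fold, and without Col-0 replicate 1 its log2 difference was 0.89, against 0.79 with all libraries. The anac046 gene (NAC046, AT3G04060, chromosome 3, 1053360 to 1055196, minus strand) promotes chlorophyll breakdown. Its counts were 122, 163 and 140.5 in mrg1 mrg2, against 86.5, 80.5 and 77.8 in Col-0, 1.74-fold higher. Col-0 libraries of anac046 lay within 1.11-fold of each other, the narrowest range among the 10 genes, while those of the mutant spread 1.34-fold, more than for most of the 10. The anac046 difference was 1.40-fold in replicate 1, 2.02-fold in replicate 2 and 1.80-fold in replicate 3. Adjusted p in the authors' deposited table was 7.16e-06 for NAC002 and 0.0108 for anac046. Exons of NAC002 overlap an annotated antisense noncoding RNA, AT1G04043, by 344 bases and the antisense gene AT1G01725 by 28 bases; the libraries were stranded, but whether reads were counted by strand is not stated, so their reads may be included.

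NAC056 and anac036 have known roles in development. NAC056 (AT3G15510, known as NARS1; chromosome 3, 5243432 to 5245510, plus strand) acts with NAC018 in the seed coat during embryogenesis. NAC056 gave 655, 543 and 529 normalized counts in mrg1 mrg2 replicates 1 to 3, against 397, 300.4 and 271 in Col-0 replicates 1 to 3, 1.78-fold higher, and replicate 1 was highest in both genotypes. The log2 difference of NAC056 without Col-0 replicate 1 was 1.01, against 0.83 with all libraries. The anac036 gene (AT2G17040, chromosome 2, 7406911 to 7408393, plus strand) reduces plant and leaf size when overexpressed. It had 1568, 1521 and 1729.8 normalized counts in mrg1 mrg2, against 1243, 770.1 and 891 in Col-0, 1.66-fold higher. The lowest mutant library of anac036 was 1.22-fold above Col-0 replicate 1, the narrowest gap among the 10 genes, and its difference was 1.26-fold in replicate 1, 1.97-fold in replicate 2 and 1.94-fold in replicate 3. Its log2 difference was 0.95 without Col-0 replicate 1, against 0.73 with all libraries. Adjusted p in the authors' deposited table was 0.00192 for NAC056 and 0.0120 for anac036.

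NAC003 and NAC004 lie next to each other on the minus strand of chromosome 1, separated by 4244 bases. NAC003 (AT1G02220, 428650 to 430720) gave 173, 191 and 194 normalized counts in mrg1 mrg2 replicates 1 to 3, against 80.6, 79.5 and 97.5 in Col-0 replicates 1 to 3, 2.16-fold higher. Its neighbour NAC004 (AT1G02230, 434965 to 436922) gave 175, 131 and 126 in mrg1 mrg2, against 94.4, 85.7 and 78.8 in Col-0, 1.67-fold higher. The pair had similar levels in Col-0. Replicate 1 was highest for NAC004 in both genotypes, and replicate 3 was highest for NAC003 in Col-0. In mrg1 mrg2, NAC003 was close in replicates 2 and 3 (191 and 194), and in raw reads replicate 2 was higher (205 against 189). Whether the order of libraries exceeds counting noise was not tested. In the authors' deposited table the adjusted p was 2.58e-06 for NAC003, the smallest of the 10, and 0.0443 for NAC004. Their coding sequences were 69.7% identical, the highest identity among the 10 genes, but each had a closer relative in the family, NAC048 (74.3%) for NAC003 and NAC005 (75.4%) for NAC004, and neither relative was listed. Of 1296 windows of 50 bases in NAC003 exons, 17 occur elsewhere in the nuclear genome, so a small part of its reads could come from elsewhere; 0 such windows were found in the exons of any of the other 9 genes.

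The windows of 250 bases before NAC003 (TAIR10.1, chr1:430721-430970, minus strand) and NAC004 (chr1:436923-437172, minus strand) are shown because the genes are adjacent relatives; capitals mark ACGTG on either strand and CATGTG, a NAC-bound sequence of the ERD1 promoter.
NAC003: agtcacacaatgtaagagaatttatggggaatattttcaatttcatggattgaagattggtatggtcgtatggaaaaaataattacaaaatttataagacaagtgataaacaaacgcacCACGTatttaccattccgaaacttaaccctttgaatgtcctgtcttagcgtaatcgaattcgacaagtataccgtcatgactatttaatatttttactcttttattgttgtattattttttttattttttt
NAC004: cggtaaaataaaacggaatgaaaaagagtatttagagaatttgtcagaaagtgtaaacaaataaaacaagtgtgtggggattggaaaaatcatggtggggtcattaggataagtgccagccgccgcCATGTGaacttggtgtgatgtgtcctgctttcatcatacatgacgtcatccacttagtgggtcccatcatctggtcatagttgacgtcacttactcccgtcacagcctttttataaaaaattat
NAC003 held ACGTG, 131 bases before its start as read on the other strand. NAC004 held CATGTG and, just before it, overlapping copies of the GCC-box GCCGCC, which ethylene response factors bind.

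Motifs were counted on both strands in the same windows of all 10 genes and of 27443 nuclear protein-coding genes. ACGTG was in 5 of the 10 windows (NAC003, NAC029, NAC056, RD26 and anac046), against 22.9% of all genes, 25.7% of listed higher genes and 30.7% of NAC genes. CACG, the core of NAC binding sites, which every ACGTG contains on the other strand, was in 7 windows, against 45.6% of all genes and 54.4% of NAC genes. The W-box form TTGACC, bound by WRKY factors, was in 0 of the 10 windows, against 12.2% of all genes and 9.65% of NAC genes, and the form TTGACT was in 0, against 19.1% and 13.2%. The NAC-bound CATGTG was in 1 window, against 11.1% of all genes and 12.3% of NAC genes. The G-box was in 1 window, against 6.49% of all genes and 7.02% of NAC genes, and the GCC-box in 1, against 1.87% and 5.26%. The dehydration-responsive core was in 1 window, against 12.0% of all genes and 9.65% of NAC genes. The windows of NAC59 and NAC92 held none of these letters; no match says only that the letters are not in these 250 bases.

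Levels were compared between genes as normalized counts per kb of annotated exon. In mrg1 mrg2 the order began with RD26 at 1903 ± 184, anac036 at 1221 ± 83.2 and NAC002 at 535 ± 35.1 counts per kb (SD, n = 3 each), each without overlap with the next. NAC029, NAC056 and NAC59 followed at 326 ± 97.1, 314 ± 37.7 and 311 ± 23.0, where neighbours overlapped, then NAC92 at 223 ± 31.0. NAC003, NAC004 and anac046 were lowest, at 117 ± 7.11, 100.4 ± 18.7 and 92.8 ± 13.6, and neighbours among them overlapped. In Col-0 the order was anac036 at 736 ± 187, RD26 at 623 ± 452, NAC002 at 311 ± 37.0, NAC056 at 176 ± 36.1, NAC59 at 133 ± 75.8, NAC92 at 95.0 ± 34.5, NAC004 at 60.1 ± 5.46, NAC003 at 54.0 ± 6.33, anac046 at 53.5 ± 2.94 and NAC029 at 47.9 ± 39.3 counts per kb. All neighbours in the Col-0 order overlapped except NAC002 and NAC056. By its mean, NAC029 ranked 4 of 10 in mrg1 mrg2 and 10 of 10 in Col-0. Its Col-0 libraries spanned 7.86 to 86.4 counts per kb and overlapped those of NAC59, NAC92, NAC004, NAC003 and anac046. The place of NAC029 in the Col-0 order is therefore uncertain.

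The range over the 3 libraries, as log2 of highest over lowest with 0.5 added to each count, was smaller in mrg1 mrg2 than in Col-0 for 8 of the 10 genes, and for 69.7% of the 531 higher genes. Its median over the 10 genes was 0.29 in mrg1 mrg2 and 0.62 in Col-0, compared with 0.39 and 0.53 over the 531. Replicate 1 was then left out of both genotypes, a choice made after seeing the data. The range was smaller in mrg1 mrg2 for 8 of the 10 genes, against 55.0% of the 531. These were not the same 8 genes: RD26 now had the wider range in mrg1 mrg2, and NAC004 had it in Col-0. The median range over the 10 genes was 0.18 in mrg1 mrg2 and 0.21 in Col-0, compared with 0.23 and 0.26 over the 531. With all libraries, the widest Col-0 ranges were those of NAC029 (3.39), RD26 (1.77), NAC59 (1.69) and NAC92 (1.12), which also had the largest genotype differences. The genes were listed on p-values of that difference, so a gene with a wide range needed a large difference to be listed. Nothing is therefore concluded from the 2 going together. With all libraries, NAC004 and anac046 were the genes with the wider range in mrg1 mrg2, 0.47 against 0.26 and 0.42 against 0.15 in Col-0.

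**Figure D2:**
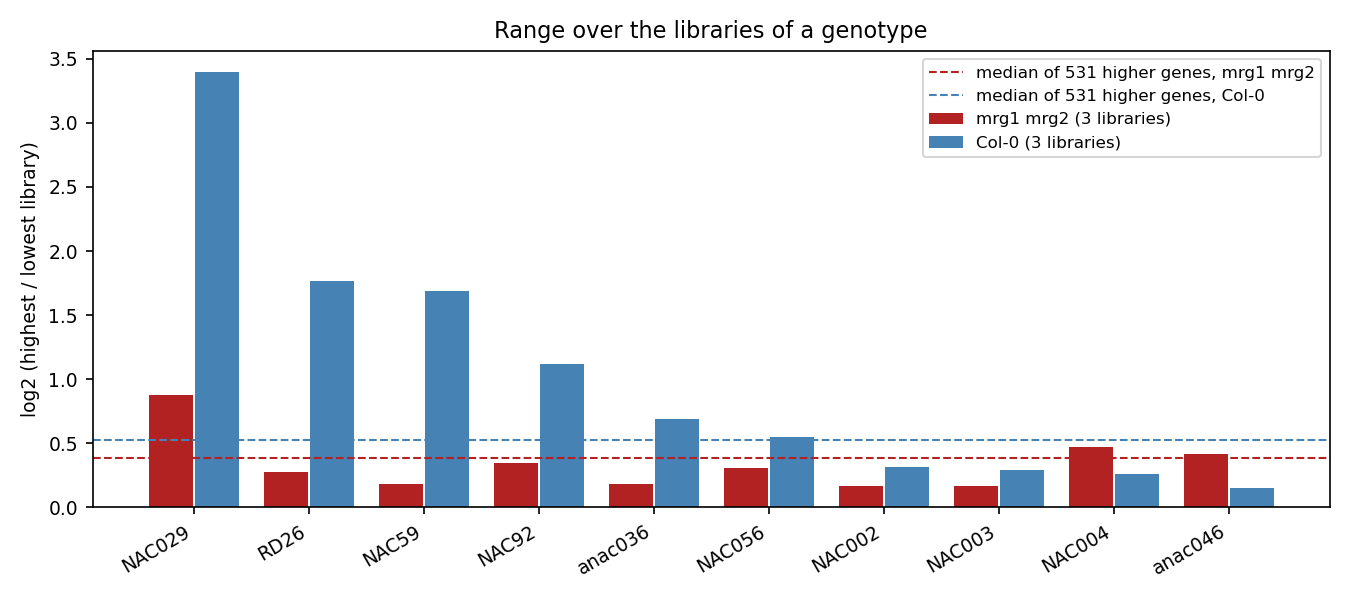
Range over libraries, as log2 of the highest over the lowest library (0.5 added), for mrg1 mrg2 (red) and Col-0 (blue), with the medians of 531 higher genes as dashed lines. NAC029, RD26, NAC59 and NAC92 have Col-0 bars of 1.12 or more, and their mrg1 mrg2 bars are 0.18 to 0.88.

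Replicate 1 was the highest Col-0 library for 8 of the 10 genes, against 47.8% of the 531 higher genes. It exceeded the next Col-0 library by a median of 0.33 on the log2 scale over the 10 genes, with -0.31 for NAC92 and -0.27 for NAC003 at the low end and 1.56 for RD26 at the high end, compared with a median close to 0 over the 531. In mrg1 mrg2, replicate 1 was the highest library for 4 of the 10 genes, against 30.3% of the 531. The difference between genotypes was smallest in replicate 1 for 8 of the 10 genes, against 52.0% of the 531. Its median over the 10 genes was 0.75 in replicate 1, 1.03 in replicate 2 and 0.98 in replicate 3 on the log2 scale, compared with 0.93, 1.12 and 1.17 over the 531. MRG2 also differed least in replicate 1, with a log2 ratio of -1.12, compared with -1.92 in replicate 2 and -2.01 in replicate 3. The log2 difference of the genotype means had a median over the 10 genes of 1.04 without Col-0 replicate 1, 0.99 without mrg1 mrg2 replicate 3 and 1.04 without replicate 1 of both genotypes. The part of Col-0 replicate 1 and of the MRG2 level of mrg1 mrg2 replicate 1 in these values was not tested.

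**Figure D3:**
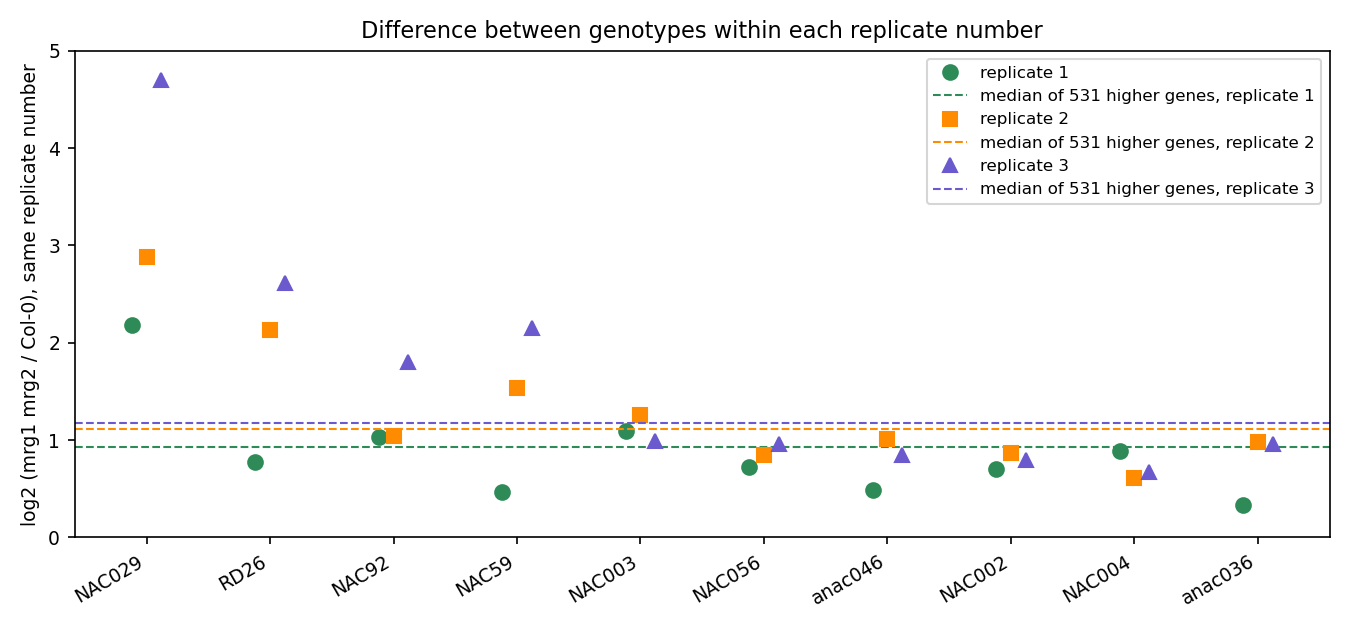
Log2 ratio of mrg1 mrg2 over Col-0 within each replicate number (symbols) for the 10 NAC genes, with dashed lines at the medians of 531 higher genes (0.93, 1.12 and 1.17). RD26 and NAC59 lie at 0.77 and 0.47 in replicate 1 and at 2.61 and 2.15 in replicate 3, whereas NAC002, NAC003, NAC004 and NAC056 differ little between replicates.

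The genes were also compared by how each library deviated from the mean of its genotype, on the log2 scale. Over 6 libraries, Pearson's r between pairs of the 10 genes had a median of 0.41 (45 pairs, range -0.90 to 0.93), compared with 0.08 over 87571 pairs of the 419 higher genes with at least 50 counts on average. All pairs share the same 6 libraries, so these correlations are given as a description. Their level rested on Col-0 replicate 1: without it the median over the 45 pairs was 0.033, compared with 0.043 over the 87571 pairs, while without mrg1 mrg2 replicate 3 it was 0.44. Both values were added after seeing the data and use 5 libraries. The closest pairs were NAC002 with NAC056 (0.93), NAC029 with NAC59 (0.92), RD26 with anac036 (0.91) and RD26 with NAC59 (0.89). Without Col-0 replicate 1 these values were 0.75, 0.94, 0.033 and 0.37. NAC003 ran against the mean of the other genes (-0.71), and its r with the adjacent NAC004 was -0.75, or -0.70 without Col-0 replicate 1. The deviations of NAC003 were small, however, from -0.104 to 0.188 on the log2 scale. Whether they exceed counting noise was not tested, so nothing is concluded from these negative values. Of the other higher genes, those most like the mean profile of the 10 over all 6 libraries were AT1G23390, an F-box and Kelch repeat gene (0.997), the ubiquitin ligase gene PUB26 (0.995), AT4G23870 (0.988), AT3G15760 (0.980) and the cyclic nucleotide-gated channel gene ATCNGC14 (0.978). PUB26 gave 753 ± 12.1 normalized counts in mrg1 mrg2 and 365 ± 79.2 in Col-0 (SD, n = 3 each).

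**Figure D4:**
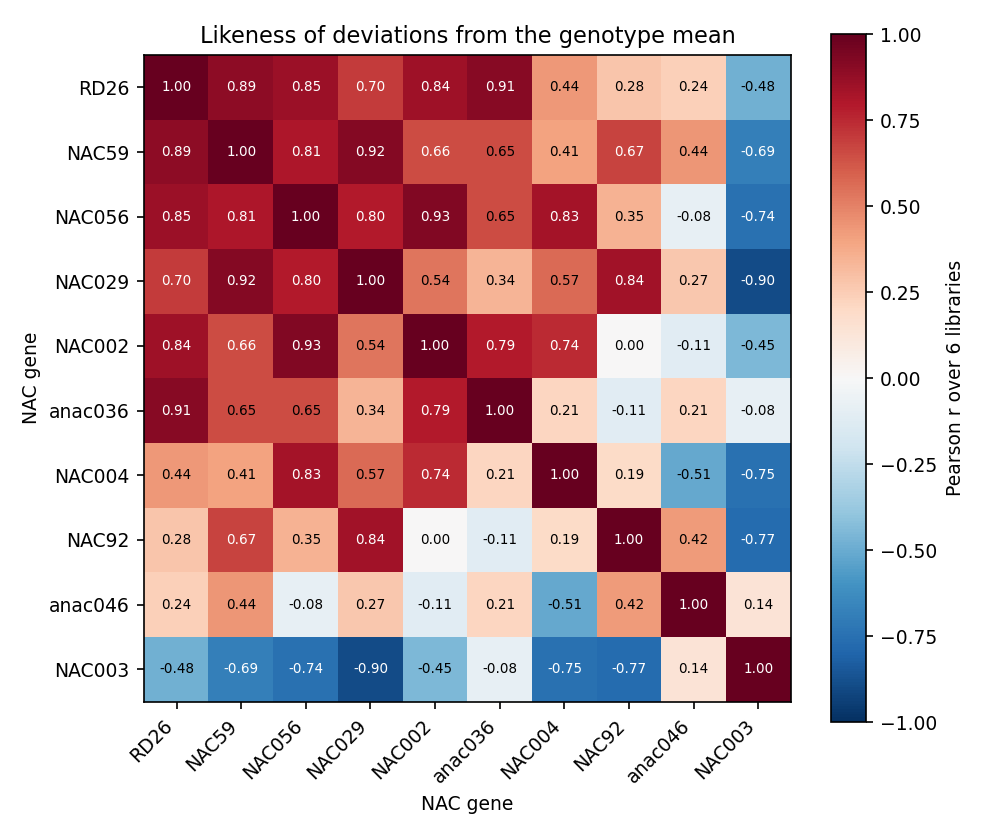
Pearson's r over 6 libraries between deviations from the genotype mean, log2(normalized count + 0.5), for each pair of NAC genes on both axes; red is positive and blue negative. RD26, NAC59, NAC056, NAC029 and NAC002 form a block of positive values between 0.54 and 0.93, and NAC003 is negative with all but anac046 (0.14). Without Col-0 replicate 1 the median of all pairs is 0.033, against 0.41 here.

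To see how the listing depended on libraries and model, the raw counts of all 552 listed genes were refitted, and a gene passed at a p of at most 0.00161, the largest that the authors listed. With edgeR's quasi-likelihood test 6 of the 10 passed (NAC002, NAC003, NAC029, NAC056, NAC92 and anac046), against 70.4% of the 531 higher genes; RD26, NAC59, anac036 and NAC004 did not. With replicate number as a block 7 passed, against 72.1%, with RD26 and NAC004 gained and anac046 lost. DESeq2 passed 9, all but NAC004, against 82.9%, and 8 with the block, against 74.0%. Equal size factors gave 7 (70.6%) and a filter of at least 10 counts in at least 3 libraries gave 6 (68.4%). Without Col-0 replicate 1, edgeR passed 9, against 73.4%. Without Col-0 replicate 2 or 3 it passed 3 each, against 44.8% and 46.9%. Leaving out mrg1 mrg2 replicate 1, 2 or 3 gave 4, 2 and 3, against 51.0%, 35.8% and 47.8%. Without replicate 1 of both genotypes 8 passed, against 49.3%. NAC003 and NAC029 passed in all 13 refits. The genes had been listed for the genotype difference, so these counts describe how the refit depends on libraries and model. They give no support for the difference.

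Other genes of the family and of the processes that these factors act in were looked up in the authors' lists. Of 22 other stress and senescence NAC genes, among them NAC019, NAC055, NAC032 and ATAF2, 0 were listed as higher and 0 as lower. The same held for 21 developmental NAC genes. Both results follow from the choice of members, since the 10 are all the NAC genes that were listed. The closest relative was listed for NAC59 and NAC92 alone, which are each other's; NAC032, NAC019, NAM and ANAC087, the closest relatives of NAC002, RD26, NAC056 and anac046, were not listed. Of 22 genes of leaf senescence and chlorophyll breakdown, 1 was higher and 0 lower. That gene was SAG113, a phosphatase gene, with 428 ± 117 normalized counts in mrg1 mrg2 and 172 ± 63.4 in Col-0 (SD, n = 3 each). Its log2 fold change in the authors' deposited table was 1.32, with an adjusted p of 0.00414. Whether SAG113 followed NAC029 was not tested. Of 20 genes of ABA synthesis and signalling, 1 was higher and 0 lower, namely ABA2, an enzyme of ABA synthesis, with 740.1 ± 15.4 normalized counts in mrg1 mrg2 and 481 ± 74.2 in Col-0 (SD, n = 3 each). Of the 22995 genes that the authors' adjustment is inferred to have covered, 2.31% were listed as higher. In the lists of 22 senescence genes and 20 ABA genes, a count of 1 higher gene cannot be told apart from that share. For unlisted genes no values were at hand, so nothing is said of their levels.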

How the data were processed

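RNA-seq of 3 mrg1 mrg2 and 3 Col-0 libraries was made, per the labels' protocols, from total RNA depleted of ribosomal RNA, as stranded single-end libraries with reads of 50 bases. TAIR10 is the build, and DESeq2 a tool, named per the submitters' processing notes. Neither the aligner nor the counter is given in the sources used here. The deposited raw counts are whole numbers, with a column for each library, per the file headers. The p-value, adjusted p-value and log2 fold change (mrg1 mrg2 over Col-0) are those of the authors, per the file headers. Only genes the authors listed are in the tables, so library totals and precision from depth are unknown.

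Size factors were fitted so that counts of 350 genes (at least 50 reads in every library) gave the authors' log2 fold changes, with a residual SD of 0.000658. The number of genes the authors adjusted over was inferred from the ratio of p to adjusted p: 22995 makes ranks whole, within 0.01, for 80.6% of genes. Refits across all listed genes used edgeR 4.0.16 and DESeq2 1.42.0 in R 4.3.3; the edgeR fit and the size factor fit were tested on simulated data. Ratios within replicates and profiles used log2(normalized count + 0.5). Deviations from genotype means correlated over 435 genes with r = 0.40, 0.55 and 0.32 for libraries of the same replicate number and -0.42 to 0.02 for others, so the numbers were taken to pair the libraries. An exact permutation test of 3 against 3 cannot give a two-sided p below 0.1, and none was made. Replicates of a genotype differed by 12.7 to 36.1 times counting noise, so none is a repeated library; p-values of the refits rest on the spread between the 3 experiments.

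The files give no coordinates. Positions, exons and sequences are from the TAIR10.1 genome and annotation (RefSeq), matched by locus for 10 of 10 genes, with equal strand. Coding sequences were compared as nucleotides by global alignment (Biopython 1.88), identity being taken over all columns. The members and gene lists were chosen with earlier results of these data known. All 10 members are named; other genes are named as MRG2, as listed members of the gene lists, or as the 5 higher genes whose profile is most like the mean of the 10.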

Additional observations from a re-analysis of the deposited data

How the results depend on the processing

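The median log2 difference of the 10 NAC genes was 0.97 with all libraries and kept its direction in each alternative run: 0.97 with equal size factors, edgeR or DESeq2 estimates, 0.98 with the replicate block, 0.83 to 1.04 with each library left out in turn, and 1.04 without replicate 1 of both genotypes, which was added after seeing the data. Of 100 planned values for single genes, 0 changed direction. For each of the 10 genes every mrg1 mrg2 library was above every Col-0 library. Leaving out a library or averaging within replicates thus could not change a direction. The unchanged direction, also that of the median, therefore gives no support for the difference. Of the 100 values, 3 moved by more than the gene's own SD over replicates. These were NAC002 and NAC056 without Col-0 replicate 1 (0.89 and 1.01) and NAC004 without mrg1 mrg2 replicate 1 (0.58). Genes with a wide SD moved further without being counted. Without Col-0 replicate 1, RD26 went from 1.61 to 2.39, NAC029 from 2.76 to 3.51 and NAC59 from 1.23 to 1.77. Without Col-0 replicate 3, NAC029 was 2.26 and NAC59 was 0.91. The number of the 10 genes that passed the refit was 6, with 2 to 9 over the fits that leave out each library in turn: 2 without mrg1 mrg2 replicate 2, 3 without mrg1 mrg2 replicate 3, Col-0 replicate 2 or Col-0 replicate 3, and 9 without Col-0 replicate 1. Each of these fits has fewer samples. With the replicate block 7 passed, of which 5 also passed without it. No overlap between genotypes (10 genes) and replicate 1 as highest Col-0 library (8 genes) held with equal size factors. The number of genes with the wider range in Col-0 was 8 with all libraries and 8 without replicate 1 of both genotypes. The genes were not the same, since RD26 dropped out and NAC004 came in. The median r between profiles was 0.41 over all libraries, 0.033 without Col-0 replicate 1 and 0.44 without mrg1 mrg2 replicate 3. What depth limits is unknown, since library totals are unknown.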

Other observations

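A count by position showed that 3 of the 10 NAC genes lie near the mutated MRG2 gene (AT1G02740, chromosome 1, 599330 to 602199, TAIR10.1). NAC004, NAC003 and NAC002 are 162 kb, 169 kb and 329.5 kb from it. Within 500 kb of MRG2 there are 6 annotated NAC genes, of which these 3 were listed as higher and NAC005, NAC006 and AT1G02210 were not. Of all 308 protein-coding genes in that interval, 7 were listed as higher, or 2.27%, compared with 1.84% of all nuclear protein-coding genes. Of the 10, 2 genes (NAC003 and NAC004) had an adjacent protein-coding gene that was also listed as higher, compared with 8.89% of listed higher genes. Each is the listed neighbour of the other, so these 2 genes are a single adjacent pair.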
